A study of Mus musculus with 14 samples.

Results

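The neutrophil granule and marker genes were a list of 10 genes, *Ngp*, *Camp*, *Ltf*, *Lcn2*, *S100a8*, *S100a9*, *Mmp8*, *Mmp9*, *Retnlg* and *Cxcr2*, of the 33939 genes in the expression table. They were matched by gene symbol, and all 10 were found and passed the filter on low values in each comparison. Neutrophils are short-lived granulocytes made in the bone marrow. They build their granules in waves while they mature: primary granules hold myeloperoxidase and serine proteases, secondary granules hold lactoferrin and cathelicidin, and tertiary granules hold gelatinase, while the S100a8/S100a9 dimer fills the cytosol. Because neutrophils carry CD11b on their surface, a CD11b sort of brain tissue takes them together with microglia and monocytes, and they are among the first blood cells to enter injured brain.

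The libraries came from CD11b+ cells that were magnetically sorted from the contralateral (CL, non-lesion) and ipsilateral (IL, lesion) hemispheres at 3 days after controlled cortical impact, a model of traumatic brain injury (TBI). All mice were C57BL/6, 8 to 12 weeks old and tamoxifen-treated, and all carried 1 Cx3cr1-CreER allele. The control mice (Ctrl, Cx3cr1-CreER+/-) had no floxed gene, and the knockout mice (cKO) carried 2 floxed alleles of 1 gene beside Cx3cr1-CreER+/- and lost it in cells in which the *Cx3cr1* promoter drives the recombinase, which are microglia and other Cx3cr1+ myeloid cells. The study waited after tamoxifen so that short-lived Cx3cr1+ blood cells were replaced, the brains were perfused with saline and the meninges were removed. There were 4 Ctrl CL and 4 Ctrl IL libraries from the same 4 mice (3541, 3545, 3546 and 3551), 3 cKO CL libraries (mice 788, 791 and 3592) and 3 cKO IL libraries (mice 784, 791 and 3592), so 6 of the 8 mouse numbers gave both hemispheres.

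Values were CPM, reads of a gene when the reads of its library are scaled to a sum of 1e+06, and 12.2 to 41.6 M reads lay behind each library. The Ctrl IL library of mouse 3546 stood apart. It had the fewest reads (12.2 M), and its 186 protein-coding genes with exons under 1000 bases had a median 2.30 lower on the log2 scale than in the other Ctrl IL libraries, whereas its genes of 8000 bases or more were 0.26 higher. The median of the short genes against the rest of the group also varied among the Ctrl CL libraries, from -0.59 in the same mouse, 3546, to 0.41 in mouse 3541, and in the 6 cKO libraries it lay between -0.04 and 0.04. *S100a9* (522 bases), *Retnlg* (593 bases), *S100a8* (694 bases) and *Camp* (758 bases) are in this short class, and comparisons that use that library are also given without it.

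The 10 genes together made up 0.0205% to 0.845% of a library. In the Ctrl mice their summed level was 8449 CPM in CL and 1138 CPM in IL of mouse 3541, 2721 and 672 CPM in mouse 3545, 3896 and 276 CPM in mouse 3546, and 619 and 205 CPM in mouse 3551. In the cKO mice it was 1832 CPM in CL and 392 CPM in IL of mouse 3592 and 1016 and 462 CPM in mouse 791, with 653 CPM in CL of mouse 788 and 282 CPM in IL of mouse 784. The sum was thus higher on the non-lesion side in 6 of 6 mice, by 2.20-fold (mouse 791) to 14.1-fold (mouse 3546). CPM are shares of the reads of a library. In these bulk samples, fewer neutrophils in the sort, more RNA from other cells and less of this RNA per neutrophil cannot be told apart. Without *Lcn2*, *S100a8*, *S100a9* and *Mmp9* in the sum, the fold in mouse 3546 was 12.1 and in mouse 791 it was 2.67.

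**Figure D1:**
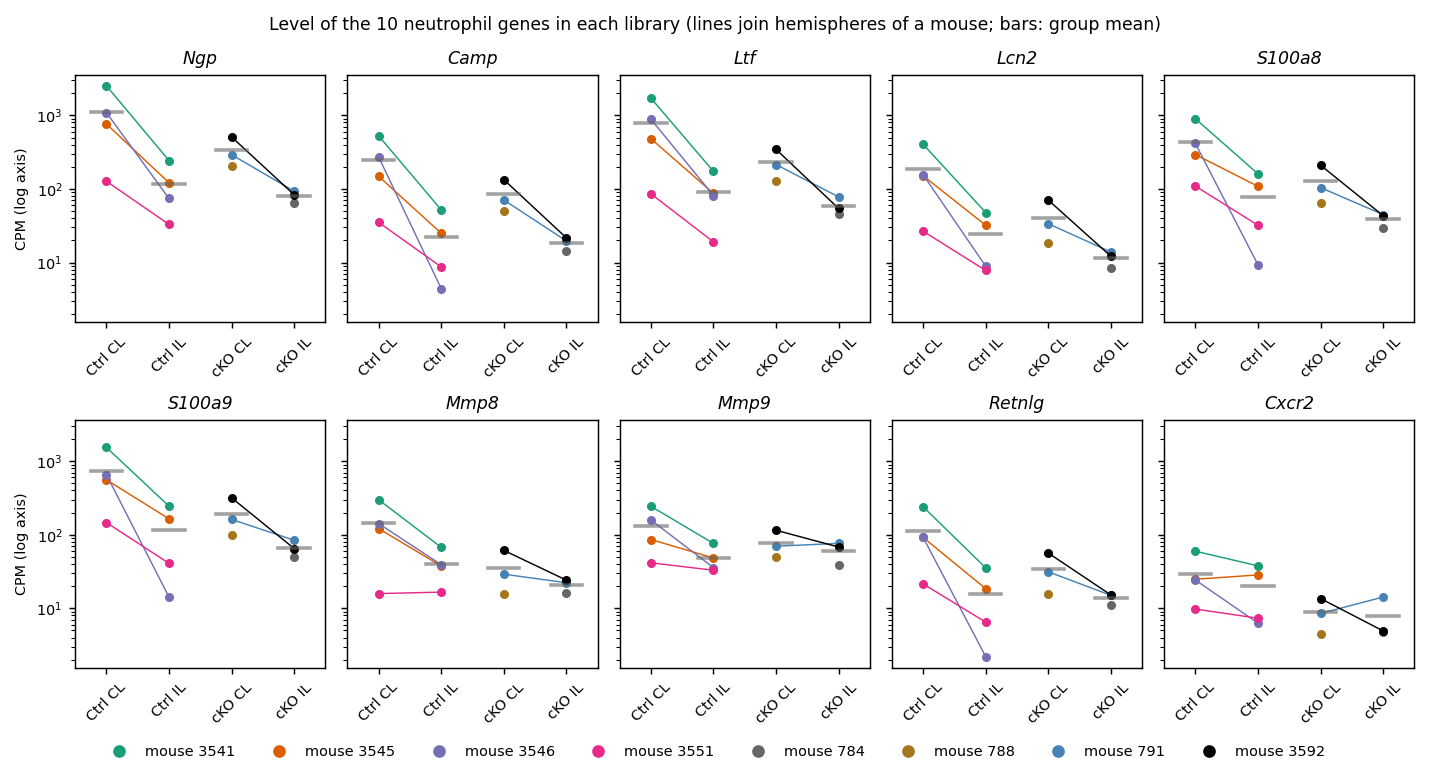
Level of each of the 10 genes in each of the 14 libraries, in CPM on a log axis; points are libraries, coloured by mouse, lines join the hemispheres of a mouse, and grey bars are the group means. Most lines fall from CL to IL, and in Ctrl CL mouse 3541 was highest and mouse 3551 lowest for 10 of 10 genes.

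Among the secondary granule genes, *Ngp* and *Ltf* had the highest CPM. *Ngp*, which encodes neutrophilic granule protein, a cystatin-like protein of the granules, (ENSMUSG00000032484) lies at chr9:110419747-110423012 of mm10. It was at 2522, 765, 1093 and 127 CPM in CL and at 243, 122, 74.2 and 33.0 CPM in IL of Ctrl mice 3541, 3545, 3546 and 3551. In cKO mice it was at 509, 292 and 206 CPM in CL (mice 3592, 791 and 788) and at 83.4, 93.2 and 64.5 CPM in IL (mice 3592, 791 and 784). Each IL library lay below the CL library of the same mouse, but in Ctrl the groups overlapped, since mouse 3551 had less *Ngp* in CL than mouse 3541 had in IL.

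*Ltf* (ENSMUSG00000032496, chr9:111019271-111042767) encodes lactoferrin, the iron-binding protein of secondary granules. It was at 1717, 482, 886 and 86.0 CPM in CL and at 173, 87.0, 81.3 and 19.1 CPM in IL of the Ctrl mice in the same order. In cKO it was at 345, 214 and 128 CPM in CL and at 54.3, 77.98 and 45.8 CPM in IL. The order of the libraries was close to that of *Ngp*, with no overlap between the cKO hemispheres.

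*Camp* (ENSMUSG00000038357, chr9:109847379-109849617) encodes the cathelicidin antimicrobial peptide precursor, and *Lcn2* (ENSMUSG00000026822, chr2:32384633-32388252) encodes lipocalin 2, which binds bacterial siderophores. *Camp* was at 526, 149, 272 and 35.2 CPM in Ctrl CL and at 51.9, 25.001, 4.42 and 8.71 CPM in Ctrl IL. *Lcn2* was at 405, 151, 156 and 26.6 CPM in Ctrl CL and at 47.7, 32.1, 8.92 and 7.81 CPM in Ctrl IL. For *Camp* the lowest IL value was in mouse 3546, the library with low values of short genes, and for *Lcn2*, whose exons span 2623 bases, it was in mouse 3551. In cKO, *Camp* was at 134, 70.8 and 49.9 CPM in CL against 21.6, 19.7 and 14.5 CPM in IL, and *Lcn2* at 70.5, 33.7 and 18.3 CPM against 12.2, 13.9 and 8.40 CPM, and neither overlapped.

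Promoters of *Ngp*, *Ltf*, *Camp* and *Lcn2* and of *Cxcr2* are shown because these genes had the largest and the smallest median folds of CL over IL within mice. C/EBP and PU.1 are transcription factors of the granulocyte lineage. RefSeq (GRCm38.p6) gave 250 bases before to 50 after the start for 9 of the 10 genes. The letters TTGCNNAA (a C/EBP-type motif) and GAGGAA (a PU.1-type motif) were searched on both strands, and matches of the 2 kinds overlapped 0 times in the members' promoters. A C/EBP-type match was in 6 of 9 member promoters and in 10.8% of all 32851 promoters, and a PU.1-type match was in 5 of 9 and in 28.3%. Capitals mark the matches. The *Ngp* promoter (chr9:110419558-110419857, + strand) held 2 C/EBP-type matches, the *Ltf* promoter (chr9:111019042-111019341, + strand) held 1 of each kind, the *Camp* promoter (chr9:109849407-109849706, - strand) held none, the *Lcn2* promoter (chr2:32387690-32387989, - strand) held 1 of each kind, and the *Cxcr2* promoter (chr1:74153744-74154043, + strand) held 2 PU.1-type matches. A match is a run of letters and was not tested for binding.
Ngp: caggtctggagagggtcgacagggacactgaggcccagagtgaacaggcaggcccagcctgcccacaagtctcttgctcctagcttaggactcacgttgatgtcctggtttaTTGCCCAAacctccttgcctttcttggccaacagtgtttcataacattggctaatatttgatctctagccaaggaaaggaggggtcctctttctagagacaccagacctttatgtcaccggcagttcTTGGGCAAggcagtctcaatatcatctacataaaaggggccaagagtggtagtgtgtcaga
Ltf: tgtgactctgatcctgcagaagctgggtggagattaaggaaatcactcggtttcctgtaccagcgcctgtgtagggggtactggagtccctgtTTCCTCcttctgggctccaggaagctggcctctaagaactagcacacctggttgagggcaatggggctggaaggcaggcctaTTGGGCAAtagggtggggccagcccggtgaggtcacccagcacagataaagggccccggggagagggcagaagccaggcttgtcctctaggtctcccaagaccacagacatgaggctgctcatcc
Camp: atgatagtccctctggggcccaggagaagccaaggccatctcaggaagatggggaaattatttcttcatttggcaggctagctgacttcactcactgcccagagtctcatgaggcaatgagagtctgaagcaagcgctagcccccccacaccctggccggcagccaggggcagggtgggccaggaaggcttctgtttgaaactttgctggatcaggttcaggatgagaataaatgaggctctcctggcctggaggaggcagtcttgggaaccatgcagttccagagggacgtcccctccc
Lcn2: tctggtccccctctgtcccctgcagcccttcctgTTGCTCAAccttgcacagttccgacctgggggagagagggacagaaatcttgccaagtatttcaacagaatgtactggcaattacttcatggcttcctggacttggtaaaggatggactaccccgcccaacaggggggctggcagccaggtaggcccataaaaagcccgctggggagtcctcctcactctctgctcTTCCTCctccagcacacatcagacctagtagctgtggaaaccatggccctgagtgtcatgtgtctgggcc
Cxcr2: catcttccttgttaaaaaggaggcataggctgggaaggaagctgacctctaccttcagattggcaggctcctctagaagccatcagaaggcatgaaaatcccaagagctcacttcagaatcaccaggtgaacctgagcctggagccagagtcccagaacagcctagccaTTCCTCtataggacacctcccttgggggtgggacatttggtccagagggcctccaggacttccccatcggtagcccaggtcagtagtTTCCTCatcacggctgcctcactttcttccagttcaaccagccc

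The cytosolic pair *S100a8* (ENSMUSG00000056054, chr3:90668978-90670035) and *S100a9* (ENSMUSG00000056071, chr3:90692632-90695721) encodes the subunits of calprotectin, which binds zinc and calcium. *S100a8* was at 899, 293, 416 and 109 CPM in Ctrl CL and at 161, 109, 9.33 and 32.1 CPM in Ctrl IL. *S100a9* was at 1538, 558, 656 and 146 CPM in Ctrl CL and at 244, 165, 14.2 and 40.9 CPM in Ctrl IL. In mouse 3546 they were 44.6-fold and 46.1-fold lower in IL, against 1.92-fold to 6.29-fold for *S100a9* in the other 5 mice with both hemispheres. The part of the short-gene shift of that library in these values was not tested. In cKO, *S100a8* was at 210, 104 and 65.3 CPM in CL and at 43.4, 44.8 and 29.4 CPM in IL, and *S100a9* at 318, 161 and 99.4 CPM in CL and at 65.0, 84.3 and 49.2 CPM in IL, without overlap.

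Of the metalloproteinase genes, *Mmp8* (ENSMUSG00000005800, chr9:7558456-7568485) encodes neutrophil collagenase and *Mmp9* (ENSMUSG00000017737, chr2:164940780-164955850) encodes gelatinase B of tertiary granules. *Mmp8* was at 299, 121, 142 and 15.9 CPM in Ctrl CL and at 67.4, 37.6, 39.2 and 16.6 CPM in Ctrl IL. *Mmp9* was at 244, 86.1, 159 and 41.6 CPM in Ctrl CL and at 76.2, 48.3, 35.8 and 32.9 CPM in Ctrl IL. In cKO, *Mmp8* was at 61.3, 29.1 and 15.9 CPM in CL (mice 3592, 791 and 788) and at 24.1, 22.3 and 16.2 CPM in IL (mice 3592, 791 and 784). *Mmp9* was at 115, 69.8 and 49.4 CPM in cKO CL and at 68.1, 76.3 and 38.4 CPM in cKO IL. Each was lower in IL in 5 of 6 mice, the exceptions being mouse 3551 for *Mmp8* and mouse 791 for *Mmp9*, and the hemispheres overlapped in both genotypes.

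*Retnlg* (ENSMUSG00000022651, chr16:48872621-48874496) encodes resistin-like gamma, a secreted protein of bone marrow granulocytes, and *Cxcr2* (ENSMUSG00000026180, chr1:74153989-74161246) encodes the receptor through which neutrophils follow ELR+ CXC chemokines. *Retnlg* was at 240, 92.0, 92.0 and 21.5 CPM in Ctrl CL and at 35.5, 18.5, 2.21 and 6.49 CPM in Ctrl IL. *Cxcr2* was at 59.7, 24.8, 24.3 and 9.77 CPM in Ctrl CL and at 37.8, 28.4, 6.30 and 7.34 CPM in Ctrl IL. *Retnlg* was lower in IL in 6 of 6 mice and *Cxcr2* in 4 of 6, with mice 3545 and 791 as the exceptions. In cKO, *Retnlg* was at 56.4, 31.4 and 15.8 CPM in CL and at 15.2, 15.03 and 11.1 CPM in IL. The lowest CL value of *Retnlg* (mouse 788) lay close to the IL values of mice 3592 and 791. Once the libraries were scaled for the test, IL of mouse 791 lay above CL of mouse 788, so the hemispheres overlapped. In cKO, *Cxcr2* was at 13.6, 8.52 and 4.43 CPM in CL and at 4.94, 14.2 and 4.71 CPM in IL, and the hemispheres overlapped.

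**Figure D2:**
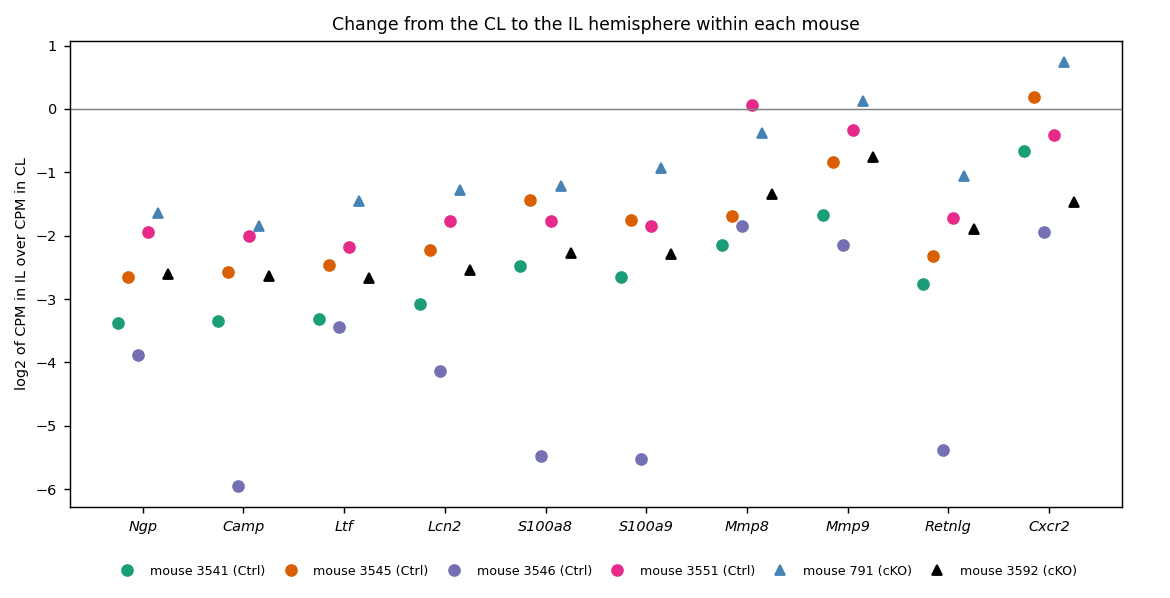
Log2 of the IL level over the CL level (CPM) for each gene within each of the 6 mice with both hemispheres; circles are Ctrl and triangles cKO mice, and 0 means equal levels. All 6 points lie below 0 for 7 genes, and *Mmp8*, *Mmp9* and *Cxcr2* have points above the line.

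Within mice, *Ngp*, *Camp*, *Ltf*, *Lcn2*, *S100a8*, *S100a9* and *Retnlg* were lower in IL in 6 of 6 mice, and 21% of 18476 genes were lower in all 6. The median fold of CL over IL was 6.20 for *Ngp*, 6.08 for *Camp*, 5.94 for *Ltf* and 5.25 for *Lcn2*. It was 4.12 for *S100a8*, 4.23 for *S100a9* and 4.34 for *Retnlg*, and 2.88 for *Mmp8*, 1.74 for *Mmp9* and 1.46 for *Cxcr2*. *Ngp*, *Camp*, *Ltf* and *Lcn2* thus headed the order, and *Mmp8*, *Mmp9* and *Cxcr2* closed it.

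The IL and CL hemispheres of Ctrl mice were first compared without the mouse as a term. None of the 10 genes passed limma's test (called where the adjusted p was 0.05 or less and the fold 1.2 or more). An unadjusted p under 0.05 was found for 7 of them, and for 3468 of all 16376 genes tested. In this comparison 6.65% of 16376 genes were called, and 2.97% were called lower. The log2 fold changes (IL over CL) were -2.87 (SE 0.92, limma adjusted p = 0.0984) for *Ngp*, -3.27 (SE 0.93, limma adjusted p = 0.0692) for *Camp* and -2.75 (SE 0.95, limma adjusted p = 0.122) for *Ltf*. *S100a8*, *S100a9*, *Lcn2* and *Retnlg* lay between -2.64 and -2.83, with SEs of 0.87 to 0.99. *Mmp8* (-1.32, SE 0.82), *Mmp9* (-1.16, SE 0.55) and *Cxcr2* (-0.58, SE 0.72) were nearer to 0. The median over the 10 genes was -2.71, and over all genes tested it was -0.04. Without the IL library of mouse 3546, 0 of 10 were called and their median was -2.07, while 813 genes were called higher and 616 lower of 16745. The hemispheres overlapped for 10 of 10 genes, whereas 15.2% of all genes did not overlap, 8.56% in the lower direction.

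The summed level spanned 13.6-fold among the Ctrl CL libraries, and both hemispheres of each Ctrl mouse were sequenced, so the mouse was also entered as a block. With it, 9 of 10 genes were lower in IL by limma, all except *Cxcr2*, and 20.5% of all genes were called (10.7% lower). The adjusted p by limma with the block was 0.001 for *Ngp* (SE 0.29), 0.000474 for *Ltf* (SE 0.22), 0.00721 for *Camp* (SE 0.54) and 0.0028 for *Lcn2* (SE 0.35). For the other called genes it ranged from 0.00777 (*Retnlg*, SE 0.47) to 0.0301 (*Mmp8*, SE 0.33), with *S100a9* at 0.0147, *S100a8* at 0.0203 and *Mmp9* at 0.0263. For *Cxcr2* the log2 fold change was -0.58 with a 95% interval of -1.28 to 0.12 (limma adjusted p = 0.216). With mouse 3546 left out, the same count of 9 was called lower and the median log2 fold change was -2.03. Without mouse 3541 or 3545 the count was 7, as *Mmp8* and *Mmp9* were not called, and without mouse 3551 it was 8, as *S100a8* was not (limma adjusted p = 0.0501). Of all genes, 1837 of 16222 were called lower without mouse 3546 and 783 of 16548 without mouse 3541. It was 615 of 16513 without mouse 3545 and 846 of 16196 without mouse 3551.

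In cKO mice, the same comparison without the block called 6 of 10 genes lower in IL, among 22.3% of 16758 genes called and 9.54% called lower. They were *Ngp* (log2 fold change -1.88, SE 0.29, limma adjusted p = 0.00458), *Camp* (-1.95, SE 0.30), *Ltf* (-1.77, SE 0.33), *Lcn2* (-1.48, SE 0.41), *S100a8* (-1.44, SE 0.36) and *S100a9* (-1.32, SE 0.37), with limma adjusted p from 0.00458 to 0.0367. *Retnlg* (-1.02, limma adjusted p = 0.0799), *Mmp8* (-0.47), *Mmp9* (-0.24) and *Cxcr2* (-0.10) did not pass. The same 6 genes did not overlap between hemispheres on the scaled values used for the test, nor did 41.8% of all genes, 19.7% in the lower direction. The median over the 10 genes was -1.38, and over all genes it was 0.02. With the mouse as a block, in which only mice 791 and 3592 inform the difference, *Retnlg* joined them (log2 fold change -1.32, limma adjusted p = 0.0118), making 7, where 4.94% of all genes were called lower. The count was 3 (*Ngp*, *Camp* and *Ltf*) without the CL library of mouse 791 or the IL library of mouse 784, 791 or 3592, and 0 when all 14 libraries shared 1 estimate of the spread. Of all genes, 1349 of 17613 were called lower without CL of mouse 791. Without IL of mice 784, 791 and 3592 it was 739 of 17221, 827 of 17247 and 881 of 17584. With the shared estimate it was 666 of 18476. With the mouse entered as a random effect over the 14 libraries, 8 members were called lower in Ctrl (23% of all genes called and 12% lower) and 0 in cKO (16.9% and 7.92%).

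The log2 fold change of IL over CL lay nearer to 0 in cKO than in Ctrl for 10 of 10 genes, but the difference did not pass the test. The interaction of genotype and hemisphere had a median of 1.07 on the log2 scale over the 10 genes. Of the 10, 0 had an unadjusted p under 0.05, against 478 of all 18476 genes. By limma 0 of the 10 were called, as were 0% of all genes. Without 1 library the median lay between 0.52 (CL of mouse 3541) and 1.87 (CL of mouse 3551), and it was 0.75 without IL of mouse 3546. Without CL of mouse 3551, 3 of the 10 genes had an unadjusted p under 0.05, against 575 of 18257 genes, and 0 were called. For *Ngp* the interaction was 0.99, with a 95% interval of -1.56 to 3.53. With the mouse as a block it was 0.84 (-0.37 to 2.05). With the mouse as a random effect 0 of 10 were called, against 0.0162% of all genes (0.0108% lower).

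Between genotypes, the IL hemispheres showed no call. In cKO IL the 10 genes ranged from 0.76 lower on the log2 scale (*Mmp8*, interval -1.76 to 0.23) and 1.01 lower (*Cxcr2*, interval -2.65 to 0.63) to 0.36 higher (*Mmp9*, interval -0.50 to 1.23). None had an unadjusted p under 0.05, against 1513 of 16919 genes, and 0.656% of the 16919 genes were called (0.301% lower). The groups overlapped for 10 of 10 genes, and 9.99% of all genes did not overlap (4.76% lower). With the mouse as a random effect 0 of 10 were called, against 1% of all genes (0.444% lower). Without the IL library of mouse 3546 the median over the 10 genes went from -0.23 to -0.58 and *Cxcr2* alone had an unadjusted p under 0.05 (log2 fold change -1.45, limma adjusted p = 0.262). Of all genes tested there, 2749 of 16492 had an unadjusted p under 0.05. Still 0 of the 10 were called, while 145 genes were called higher and 137 lower of 16492. Without the IL library of mouse 3541 the median was 0.29, without that of mouse 3545 it was 0.03, and without that of mouse 3551 it was -0.63. The interval ran from -2.38 to 1.75 for *S100a8* and from -2.24 to 2.02 for *S100a9*, so differences of either sign within those bounds remained compatible with these values.

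In the CL hemisphere all 10 genes had a mean below Ctrl in cKO, with a median log2 difference of -1.45, against -0.06 over all genes. *Cxcr2* was lower by 1.50 (log2 fold change -1.50, SE 0.54, limma unadjusted p = 0.0178, adjusted p = 0.352), *Lcn2* had -1.83 (adjusted p = 0.456), *S100a9* -1.64 (adjusted p = 0.441) and *S100a8* -1.55 (adjusted p = 0.423) by limma. These 4 had an unadjusted p under 0.05, as did 1624 of 16603 genes. But 0 of 10 were called, and 0.873% of the 16603 genes were (0.41% lower). The random effect gave 0 of 10 as well, against 1.59% (0.66% lower). The groups overlapped for 10 of 10 genes, where 9.27% of all genes did not overlap (4.71% lower), and the Ctrl mouse 3551 lay below the highest cKO library for each of them. The size of the difference moved with single libraries. Without the CL library of Ctrl mouse 3541 the median was -0.93 and 1 of the 10 genes had an unadjusted p under 0.05, against 1392 of 16400 genes. Without that of cKO mouse 788 the median was -1.07 and 0 of the 10 did, against 1123 of 17198. Without that of Ctrl mouse 3551 the median was -2.10 and 10 of the 10 did, against 1867 of 16575. In that last fit *Mmp8* was called (limma adjusted p = 0.0469), among 59 genes called higher and 70 lower. Marker lists of other cells lay on either side of 0 in cKO CL. The median was -0.88 for border-associated macrophage genes, -0.72 for endothelial genes and -0.75 for oligodendrocyte genes (each with 6 of 6 below 0, and 1 oligodendrocyte gene, *Mobp*, called lower), -0.69 for mast cell and basophil genes (4 of 4 below 0), -0.57 for T and NK cell genes (3 of 3) and -0.44 for infiltrating monocyte genes (8 of 10). It was -0.20 for B cell genes (5 of 5 below 0), -0.14 for astrocyte genes (6 of 7), 0.00 for homeostatic microglia genes (5 of 10), 0.04 for neuron genes (2 of 5) and 0.41 for red cell genes (0 of 5). Their part in the difference was not tested.

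**Figure D3:**
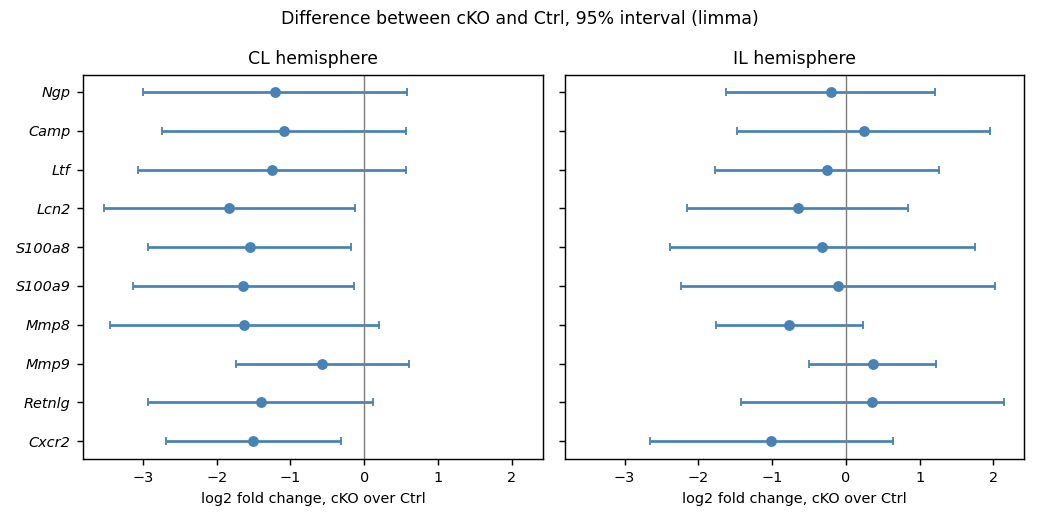
Log2 fold change of cKO over Ctrl for each gene in the CL (left) and IL (right) hemisphere; points are limma estimates and bars their 95% intervals, unadjusted. In CL all 10 points lie below 0 and 4 intervals exclude it (*Lcn2*, *S100a8*, *S100a9* and *Cxcr2*), and in IL all 10 intervals include it.

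The 10 genes mostly put the libraries of a group in a like order. Mouse 3541 was highest for 10 of 10 genes in Ctrl CL and in Ctrl IL and mouse 3592 in cKO CL, and mouse 3551 was lowest for 10 of 10 in Ctrl CL, mouse 788 in cKO CL and mouse 784 in cKO IL. The genes divided in Ctrl IL, where mouse 3546 was lowest for 5 and mouse 3551 for 5, and in cKO IL, where mouse 791 was highest for 7 and mouse 3592 for 3. Per kilobase of exon, *S100a9* had the highest mean in each group (1388 ± 1121 CPM per kb in Ctrl CL and 222 ± 207 in Ctrl IL, SD, n = 4) and *Cxcr2* the lowest (9.72 ± 6.96 and 6.55 ± 5.14). *Ngp* and *S100a8* came next in Ctrl CL (922 ± 829.02 and 618 ± 486) and changed places in Ctrl IL (96.6 ± 74.6 and 112 ± 100), and the gap between these 2 genes was smaller than either SD in both groups.

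The balance among the genes was then followed as the ratio of each to *Ngp*, an analysis chosen after their values were seen, with 9 ratios in each genotype. *Mmp8* over *Ngp* was 0.119, 0.158, 0.130 and 0.125 in Ctrl CL and 0.277, 0.309, 0.528 and 0.504 in Ctrl IL. *Cxcr2* over *Ngp* was 0.0237, 0.0325, 0.0222 and 0.0767 in Ctrl CL and 0.155, 0.234, 0.0849 and 0.223 in Ctrl IL. For both, each IL value lay above each CL value.

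The mean log2 ratio was 1.56 higher in Ctrl IL for *Mmp8* and 2.26 higher for *Cxcr2* (exact two-sided permutation p = 0.0286 each, the smallest possible with 4 against 4, and 0.129 after adjustment over 9 ratios). *Mmp9* over *Ngp* was 1.71 higher (exact permutation p = 0.0571, adjusted p = 0.171). These permutations take the 8 libraries as independent, although both hemispheres came from the same 4 mice. With the differences flipped within mice, the exact permutation p was 0.125 for each of the 3, the smallest that 4 mice allow, and 0.375 after adjustment over 9 ratios. So none of the 3 held after the adjustment, and each ratio was higher in IL in 4 of 4 Ctrl mice and in 2 of 2 cKO mice. In cKO the differences were 1.41, 1.77 and 1.65, where 3 against 3 cannot go below an exact p of 0.1. The ratios of *Camp*, *Ltf*, *Lcn2*, *S100a8*, *S100a9* and *Retnlg* to *Ngp* differed between Ctrl hemispheres by -0.50 to 0.17, with exact permutation p from 0.514 to 1. In cKO, *Lcn2* over *Ngp* was 0.34 higher in IL, in 2 of 2 mice (exact permutation p = 0.2). Also in cKO, *S100a8* (0.43), *S100a9* (0.56) and *Retnlg* (0.83) over *Ngp* were higher in IL, each in 2 of 2 mice and with the same exact p of 0.1 as *Mmp8*, *Mmp9* and *Cxcr2*. In Ctrl these 3 ratios were higher in IL in 3 of 4 mice, mouse 3546 being the exception. Without the IL library of mouse 3546 the Ctrl differences were 0.85 for *S100a8*, 0.68 for *S100a9* and 0.53 for *Retnlg*, and 1.41 for *Mmp8*, 1.73 for *Mmp9* and 2.57 for *Cxcr2*. They were 0.40 for *Lcn2*, -0.02 for *Camp* and -0.07 for *Ltf*. The exact permutation p then ranged from 0.0571, the smallest that 3 against 4 allows, to 1, and none of the 9 ratios held after adjustment (adjusted p from 0.206 to 1).

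**Figure D4:**
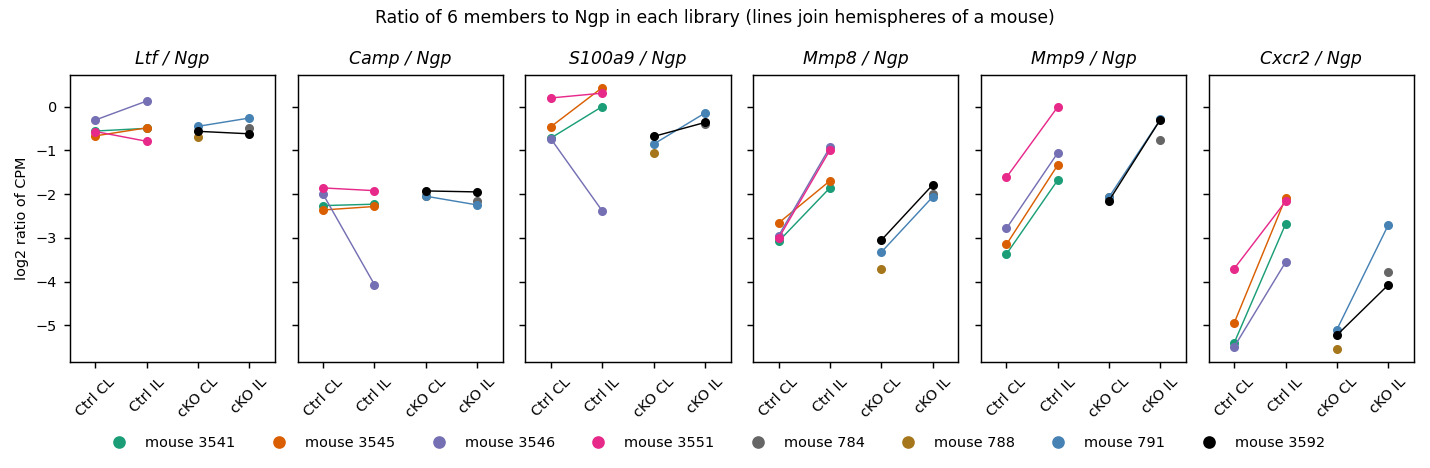
Log2 ratio of 6 genes to *Ngp* in each library; points are libraries coloured by mouse and lines join the hemispheres of a mouse. *Mmp8*, *Mmp9* and *Cxcr2* lines rise from CL to IL in both genotypes, while *Ltf* stays near its level and *Camp* and *S100a9* drop in mouse 3546.

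By gene length, the IL library of mouse 3546 differed most from its group for the short members. Compared with the other Ctrl IL libraries, *S100a8* was 3.28 lower on the log2 scale, *S100a9* 3.23, *Retnlg* 2.66 and *Camp* 2.37, whereas *Ltf* differed by 0.02 and *Mmp8* by -0.11. *Lcn2* and *Cxcr2*, with exons of 2623 and 3048 bases, were nevertheless 1.54 and 1.79 lower. The check by length was also chosen after the values were seen.

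**Figure D5:**
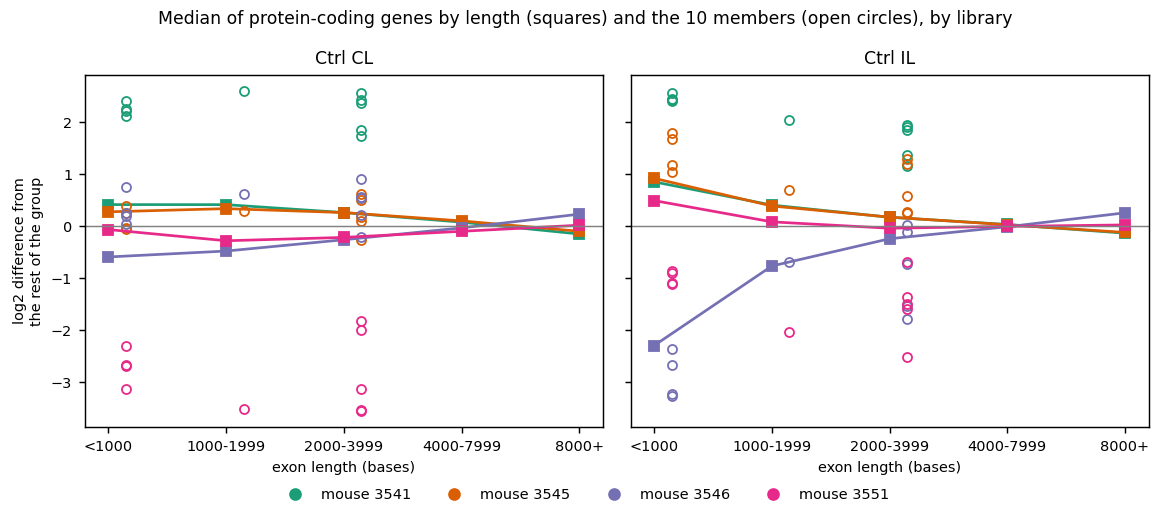
Log2 difference of each Ctrl library from the rest of its group, by exon length in bases, in CL (left) and IL (right); squares are medians over protein-coding genes of a length class and open circles the 10 genes. The IL library of mouse 3546 reaches -2.30 for genes under 1000 bases, and its 4 short members lie below that level.

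Other neutrophil genes were called in both directions. Of 22 further mature neutrophil genes, 19 were tested in Ctrl mice, where 0 were lower and 1 was higher in IL without the block, and 8 were lower and 2 higher with it (median -0.92), against 10.7% of all genes called lower with it. *Ly6g*, the surface marker that defines mouse neutrophils, was 10.3 ± 8.73 CPM in Ctrl CL and 1.22 ± 1.12 CPM in Ctrl IL (log2 fold change -2.07, limma adjusted p = 0.00293 with the block). *Cd177*, a neutrophil surface antigen, was 88.4 ± 81.0 and 16.1 ± 7.65 CPM (adjusted p = 0.0118 with the block by limma). Both were lower in IL in 6 of 6 mice and were called in cKO as well. The Ctrl IL values of this and the following lists include the library of mouse 3546 and were not given without it.

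*Hcar2*, a hydroxycarboxylic acid receptor, was higher in IL in both genotypes (log2 fold change 1.38, limma adjusted p = 0.0122 in Ctrl, and 1.33, adjusted p = 0.0159 in cKO). *Il1r2*, the decoy receptor for interleukin 1, and *Trem1*, an activating receptor of neutrophils and monocytes, were called higher in cKO IL (1.35 and 1.53). In Ctrl IL *Il1r2* was called higher with the block (0.88, limma adjusted p = 0.0227) and *Trem1* was not (0.81, adjusted p = 0.0546), and *Il1r2* was higher in IL in 6 of 6 mice and *Trem1* in 5 of 6. *Csf3r*, the receptor of the granulocyte growth factor G-CSF, was the most abundant of the list and was not called (690 CPM in Ctrl CL and 553 CPM in Ctrl IL, log2 fold change -0.25). In cKO, 2 of 17 tested genes of this list were called lower and 3 higher, where 22.3% of all genes were called and 9.54% were called lower.

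Of 10 primary granule and precursor genes, all were tested in Ctrl and all were below 0. Without the block 1 was called lower (*Olfm4*, log2 fold change -1.55), where 2.97% of all genes were. With it 4 were, *Mpo*, *Elane*, *Olfm4* and *Fcnb*, where 10.7% of all genes were. *Mpo*, which encodes myeloperoxidase, was 2.39 lower in Ctrl IL and *Elane*, neutrophil elastase, 2.38 lower (limma adjusted p = 0.013 and 0.0418 with the block). In cKO 2 of 9 tested genes of this list were called lower without the block, where 9.54% of all genes were. *Mpo* and *Elane* were called in cKO, at -1.50 and -1.55, and both were lower in IL in 6 of 6 mice.

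Of 8 neutrophil attractants and growth factors, 5 were tested, and 3 were called higher in IL in Ctrl and 4 in cKO (0 lower), where 6.65% and 22.3% of all genes were called in either direction. Of the ligands of *Cxcr2* in this list, *Cxcl2* was higher in IL by 1.65 in Ctrl and 2.23 in cKO, and *Cxcl3* by 3.44 and 2.91 on the log2 scale, each called without the block by limma (adjusted p from 0.00181 to 0.0221). *Cxcl1* was called in cKO (2.61) and in Ctrl only with the block (1.86, limma adjusted p = 0.00191). *Ppbp* was called in Ctrl (1.71, limma adjusted p = 0.0362) and not in cKO (1.36, adjusted p = 0.0703), and *Cxcl5* was too low to be tested (mean 0.0718 CPM in Ctrl CL and 0.106 CPM in Ctrl IL). *Cxcl1*, *Cxcl2*, *Cxcl3* and *Ppbp* were higher in IL in 6 of 6 mice, the mice in which *Ngp*, *Ltf* and *Camp* were lower.

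Marker lists of other cells are given beside these results, and their part in them was not tested. The summed level of 10 homeostatic microglia genes lay between 32494 and 40143 CPM in CL and between 18908 and 20456 CPM in IL of Ctrl mice, and 7 of 10 were called lower in Ctrl IL. That of 10 infiltrating monocyte genes lay between 281 and 426 CPM in CL and between 662 and 1273 CPM in IL, with 4 of 10 called higher. The summed level of 5 red cell genes, a gauge of blood left in the tissue, lay between 36.8 and 132 CPM in CL and between 15.1 and 180 CPM in IL, and 0 of 5 were called. In cKO the microglia sum lay between 30369 and 34143 CPM in CL and between 17791 and 20262 CPM in IL, the monocyte sum between 134 and 407 and between 676 and 1079 CPM, and the red cell sum between 104 and 141 and between 66.5 and 394 CPM. Of 7 T and NK cell genes, the 3 tested in Ctrl, *Nkg7*, *Klrb1c* and *Ncr1*, were lower in IL. *Nkg7* and *Klrb1c* were called lower (3 of 3 with the block). The others were too low to be tested. *Cd3e* was at 0.0787 CPM in Ctrl CL and 0.112 CPM in Ctrl IL, *Cd3g* at 0.0944 and 0.134, *Cd3d* at 0.0880 and 0.0784 and *Trac* at 0.237 and 0.112. The sum of the T and NK cell list lay between 5.97 and 12.2 CPM in Ctrl CL and between 2.31 and 3.67 CPM in Ctrl IL. The sum of B cell genes lay between 30.8 and 47.3 CPM in Ctrl CL and between 21.0 and 30.2 CPM in Ctrl IL, with 0 of 4 called (1 of 4 with the block, *Cd79b*). In cKO, 0 of 5 T and NK cell genes and 0 of 3 B cell genes were called. Other lists in Ctrl had median log2 fold changes (IL over CL) of -0.90 for border-associated macrophage genes (4 of 6 below 0, 1 called lower and 1 higher, and 3 lower and 1 higher with the block), -0.66 for mast cell and basophil genes (3 of 3 below 0, 1 called lower, *Cpa3*) and -0.55 for endothelial genes (5 of 6 below 0, 0 called, and 2 lower with the block). The median was -0.34 for oligodendrocyte genes (5 of 6 below 0, 0 called, and 2 lower with the block), 0.06 for astrocyte genes and -0.04 for neuron genes. In cKO these medians were -0.09 for border-associated macrophage, -0.19 for mast cell and basophil, 0.11 for endothelial, 0.42 for oligodendrocyte, 0.19 for astrocyte and -0.08 for neuron genes.

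By the mean absolute difference of z scores over the 14 libraries, the genes whose pattern was most like the mean of the 10 members, of 18466 compared, were *Wfdc21* (0.108), *I830127L07Rik* (0.157), *Mapk13* (0.171), *Itgb2l* (0.185) and *Ly6g* (0.185). *Serpinb1a*, *Slco4c1*, *Pglyrp1*, *Panct2* and *Cd177* followed. *Wfdc21* was 14.8 ± 11.8 CPM in Ctrl CL, 2.08 ± 2.07 CPM in Ctrl IL, 4.20 ± 3.18 CPM in cKO CL and 1.11 ± 0.38 CPM in cKO IL. The libraries share mice, and the measure is a description. Among the members, *Lcn2* (0.111) and *S100a9* (0.128) lay closest to the mean pattern and *Cxcr2* (0.478) farthest.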

How the data were processed

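RNA of CD11b+ cells from 14 libraries was sequenced from Smart Seq v4 libraries. Per the labels, the authors used STAR, mm10 and Partek Flow 8.0, and they deposited CPM values under the name of raw counts, in which each library sums to 1e+06. Reads were recovered from the step of 1 read, which gave 12.2 to 41.6 M per library. Of values under 100 reads, 78.5% to 83.5% were whole within 0.03, so no count test was run. The authors' tables of their own comparisons, with p-values, FDR and fold changes, were not used.

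A gene was tested with a CPM of at least 10 reads at the median depth in a number of libraries equal to the smaller group, and 15 reads in all. CPM were scaled by a trimmed mean of M values (30% of M, 5% of A), and log2(CPM + 1) was tested with limma 3.58.1 (R 4.3.3, trend) with Benjamini-Hochberg adjustment over all genes tested. Fold changes are on that scale, which understates changes of low genes. The 5 contrasts were IL against CL in each genotype, cKO against Ctrl in each hemisphere, and their interaction. The code was tested on simulated data. Names and positions came from GENCODE vM21 for GRCm38, which matched 33802 of 33939 identifiers.

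The members and lists were chosen with earlier results of these data known. The genes named are the 10 members, the called or most abundant genes of the lists, and the 10 genes of most like pattern. The levels of the deleted gene are not reported here. Mouse numbers pair hemispheres of an animal: deviations from the group means correlated at 0.182 to 0.607 in 6 same-mouse pairs and at -0.535 to 0.502 in the 19 other pairs of a genotype, of which mice 784 and 788 had 0.182. The pairing rests on the shared animal, since the ranges overlap. That 784 and 788 are different mice was taken from their numbers. Alternatives covered scaling, pseudocount, filter, block and leaving out each library.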

Additional observations from a re-analysis of the deposited data

How the results depend on the processing

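In Ctrl, the count of members lower in IL was 0 in the main test and 1 on the deposited CPM without further scaling. It was 6 with all 14 libraries in 1 fit, 8 with the mouse as a random effect and 9 with the mouse as a replicate block. Of all genes, 487 of 16376 were called lower in the main test, 814 of 16376 on the deposited CPM and 956 of 18476 in 1 fit. With the random effect it was 2220 of 18476, and with the replicate block 1747 of 16376. Leaving out 1 library gave 0 to 5 members, and 5 came without the CL library of mouse 3551, where 433 of 16718 genes were called lower. Over all these fits, the genes called lower ranged from 158 of 16787 (IL of mouse 3551 left out) to 616 of 16745 (IL of mouse 3546). The block with 1 mouse left out, an alternative chosen after seeing the data, gave 7 to 9 members. There 615 of 16513 genes (mouse 3545 left out) to 1837 of 16222 (mouse 3546) were called lower. In cKO, the count of 6 was 0 with all 14 libraries in 1 fit and 0 with the mouse as a random effect. It was 4 with no filter on low values, and leaving out 1 library gave 3 to 7, with 3 in 4 of the 6 cases. Of all genes, 1598 of 16758 were called lower in the main test, 666 of 18476 in 1 fit and 1464 of 18476 with the random effect. With no filter it was 1099 of 33255, and with 1 library left out 739 of 17221 to 1393 of 17597. The fit of 14 libraries takes its spread from Ctrl and cKO together. In CL, the count for cKO against Ctrl was 0 to 1 when 1 library was left out. In IL and for the interaction it was 0 in each alternative run, those with a mouse term included.

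Leaving out 1 library moved 10 log2 fold changes, each uncalled, across 0, in 17 cases. The ranges in cKO were -0.90 to 0.013 for *Mmp8*, -0.50 to 0.070 for *Mmp9* and -0.61 to 0.23 for *Cxcr2*. For cKO against Ctrl in IL they were -0.72 to 0.30 for *Ngp*, -0.35 to 0.84 for *Camp*, -0.89 to 0.22 for *Ltf*, -1.13 to 0.29 for *S100a8*, -0.92 to 0.52 for *S100a9* and -0.31 to 0.95 for *Retnlg*. The interaction of *Cxcr2* ranged from -0.021 to 0.93. The cause was not tested. With 3 or 4 mice a group and a wide spread among mice, a difference between genotypes could be missed.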
